A study of Mus musculus with 26 samples.

Results

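The MiT family is a group of 4 related transcription factor genes, Mitf, Tfe3, Tfeb and Tfec, which were matched by mouse symbol to the Ensembl identifiers of the gene count files, 4 of 54146 genes listed. Their expression was measured in a mouse model of acute myeloid leukemia. Both groups carried MLL-AF9 (MA9), a fusion oncogene of human leukemias, delivered by retrovirus into bone marrow cells depleted of mature lineages. One group also carried SETDB1, which methylates lysine 9 of histone H3 (MA9+SETDB1, 3 libraries), and the other the empty puromycin-resistance vector (MA9+EV, 3 libraries). Both were grown in IL-3 and SCF for 8 to 12 weeks, with 3 to 6 weeks of puromycin selection. The labels call the libraries biological replicates but do not say whether they came from separate transductions or marrow donors, so all errors below measure the spread between these libraries, which may be technical. No strain, sex or age is given in the labels used here. The family was proposed with the values of this contrast in view, so its own values are given as a description, without a test. Replicate 1 stood apart in each arm: its correlation with the other replicates of the arm was 0.948 to 0.965 on log2 CPM values, while replicates 2 and 3 correlated at 0.998.

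MiT proteins are basic helix-loop-helix leucine zipper factors that bind DNA as dimers with themselves or with each other, at E-boxes with the core CACGTG and at the related M-box with the core CATGTG. When nutrients are plentiful, the kinase complex mTORC1 on the lysosome surface phosphorylates TFEB, TFE3 and lysosome-associated forms of MITF, and 14-3-3 proteins then hold them in the cytosol. When mTORC1 is inactive they enter the nucleus and raise lysosome and autophagy genes, the CLEAR network. MITF is best known as a regulator of melanocytes, mast cells and osteoclasts, and TFEC is expressed mainly in macrophages and other myeloid cells. Messenger RNA levels do not show where these proteins are in the cell.

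Tfec was abundant in MA9+EV and close to absent from MA9+SETDB1, whereas Tfe3 and Mitf were higher in MA9+SETDB1 and Tfeb overlapped between the arms. The mean level of Tfec was 1320-fold lower in MA9+SETDB1, that of Tfe3 was 2.40-fold higher and that of Mitf 2.02-fold higher. Values are in CPM, counts per 1000000 of library size scaled with TMM factors, which correct for differences in library make-up. CPM is not divided by transcript length, and exon lengths were not used here, so levels are compared within a gene and not between the members. In RNA from bulk cultures, fewer cells that express a gene and less RNA of it per cell cannot be told apart.

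Tfec (ENSMUSG00000029553.10, GRCm38 chromosome 6, 16830927 to 16898464, minus strand) encodes the member expressed mainly in macrophages and related myeloid cells. MA9+EV replicates 1, 2 and 3 held 384, 398 and 394 CPM. In MA9+SETDB1 replicates 1, 2 and 3 it was 0.224, 0.304 and 0.364 CPM, from 4, 5 and 7 counts. All MA9+EV libraries lay far above all MA9+SETDB1 libraries, and the 3 MA9+EV values were within a few percent of each other (coefficient of variation 1.77%). The arms held 26730 and 16 counts in all, a ratio of scaled counts of 1310 with an exact 95% binomial interval of 808 to 2300, which covers counting error only. On the log2 scale edgeR put the change at -10.33 (SE 0.17), the 38th lowest of the 12986 genes tested. A count of 3 corresponded to 0.124 to 0.183 CPM in a library, so the level in MA9+SETDB1 was just above what a count of 0 allows.

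The window from 250 bases before to 50 bases after the start of Tfec (GRCm38.p6, chr6:16898392-16898691, minus strand, from RefSeq) is shown because this gene had by far the largest change in the family. It is printed 5′ to 3′ with matches to AGGAAG, the core bound by ETS factors such as PU.1, in capitals on either strand.

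Tfec: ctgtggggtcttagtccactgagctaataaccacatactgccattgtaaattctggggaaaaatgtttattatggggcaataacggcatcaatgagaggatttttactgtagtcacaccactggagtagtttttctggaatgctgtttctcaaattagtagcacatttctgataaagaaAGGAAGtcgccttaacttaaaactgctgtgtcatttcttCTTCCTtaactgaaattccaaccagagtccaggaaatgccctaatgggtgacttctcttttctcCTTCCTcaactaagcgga

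The Tfec window held 3 such matches, beginning at positions -71, -32 and 33 from the start, of which the last 2 read CTTCCT on the printed strand. Of all 32851 RefSeq windows of this length, 35.4% held at least 1 match. PU.1 is known from macrophages as an activator of the Tfec promoter. Its own gene, Spi1, stood at 223, 181 and 181 CPM in the MA9+EV libraries and at 198, 213 and 218 CPM in the MA9+SETDB1 ones (edgeR log2 fold change 0.10 ± 0.12 SE, adjusted p = 0.501). Its arms overlapped through MA9+EV replicate 1. Without replicate 1 of both arms, an alternative chosen after seeing the data, Spi1 passed as higher (edgeR log2 fold change 0.265, adjusted p = 2.9e-05). The Tfec window held no match to CACGTG, to CATGTG or to AGATAA, a form of the GATA site. Other forms were not searched for, and the printed window holds TGATAA shortly before its first capitals. The window was poor in G and C, at 40.3%, and held 3 CpG, against medians of 52.7% and 7 over all windows. A match is a run of letters and does not show that a factor was bound.

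Tfe3 (ENSMUSG00000000134.17, GRCm38 chromosome X, 7762530 to 7775202) encodes a broadly expressed member that acts with TFEB on lysosome genes. MA9+EV replicates 1, 2 and 3 held 27.0, 35.3 and 33.6 CPM, against 69.6, 82.4 and 78.1 CPM in the same order in MA9+SETDB1. The arms did not overlap, and the highest MA9+EV value was far below the lowest MA9+SETDB1 value. Replicate 1 was the lowest library in each arm. The ratio of the arms was 2.58, 2.34 and 2.33 for replicate numbers 1, 2 and 3, and edgeR put the change at 1.26 on the log2 scale (SE 0.14).

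Mitf (ENSMUSG00000035158.15, GRCm38 chromosome 6, 97807002 to 98021360) encodes the member that drives mast cell and pigment cell genes. It stood at 6.44, 12.3 and 11.03 CPM in replicates 1, 2 and 3 of MA9+EV and at 15.0, 24.2 and 20.9 CPM in those of MA9+SETDB1. The arms did not overlap, but the gap between them was small beside the spread within them, since MA9+EV replicate 2 and MA9+SETDB1 replicate 1 were close. The coefficient of variation was 31.1% for MA9+EV and 23.3% for MA9+SETDB1, the widest of the 4 genes in MA9+EV. As for Tfe3, replicate 1 was the lowest library in each arm, and the ratios by replicate number were 2.33, 1.97 and 1.89. The edgeR estimate on the log2 scale was 1.01 (SE 0.30).

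Tfeb (ENSMUSG00000023990.18, GRCm38 chromosome 17, 47737037 to 47792416) encodes the member best known as the regulator of lysosome number. Across MA9+EV it held 7.68, 12.1 and 7.76 CPM, and across MA9+SETDB1 10.9, 13.3 and 13.0 CPM. MA9+EV replicate 2 was above MA9+SETDB1 replicate 1, so the arms overlapped. The mean was 9.17 ± 2.51 CPM (SD, n = 3) for MA9+EV and 12.4 ± 1.29 CPM for MA9+SETDB1, and the edgeR estimate on the log2 scale was 0.43 (SE 0.24). Of the 4 members, 3 passed an edgeR adjusted p under 0.05, the threshold passed by 53.5% of the 12986 genes tested, and 3 had arms that did not overlap, as 64.6% of those genes did. Since the members were chosen on this contrast, these counts describe the choice.

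**Figure D1:**
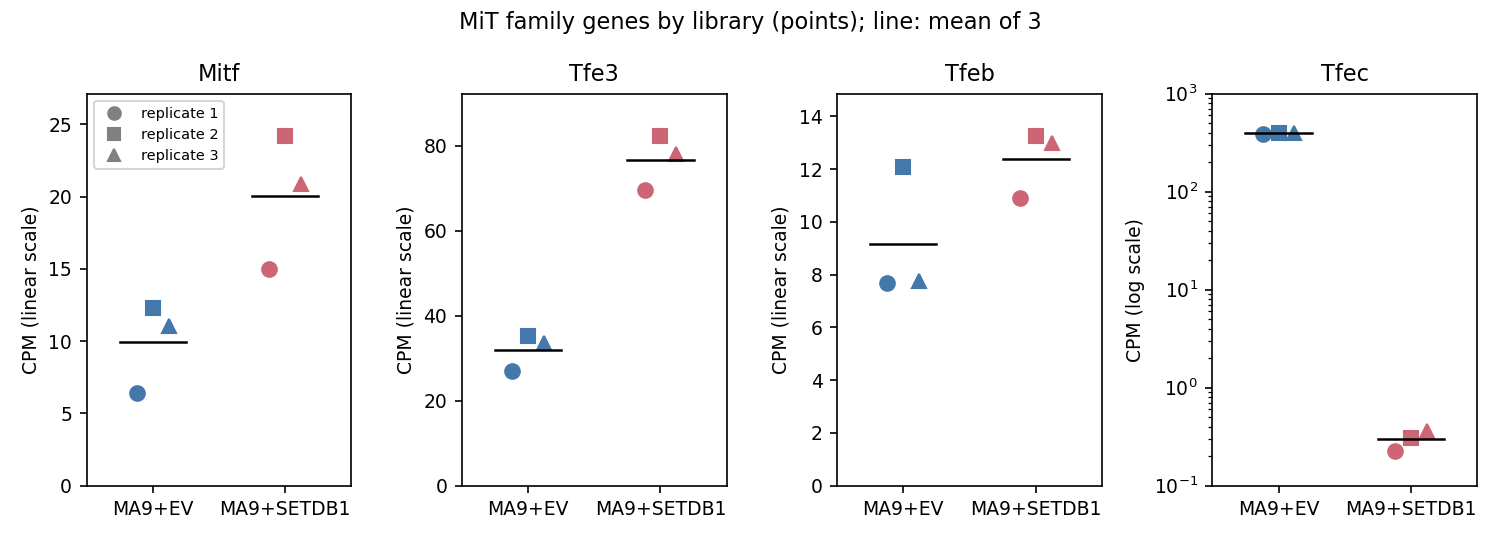
Level of each MiT gene in CPM (vertical axes, linear for Mitf, Tfe3 and Tfeb and logarithmic for Tfec) in the 3 MA9+EV and 3 MA9+SETDB1 libraries. Points are libraries, marker shapes are replicate numbers and lines are means. Tfec is near 392 CPM in MA9+EV and under 0.4 CPM in MA9+SETDB1, while Tfeb is the only member whose arms overlap.

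The reads on the family changed in number and in make-up. The 4 genes together took 425.6, 457.5 and 446.8 CPM in replicates 1, 2 and 3 of MA9+EV and 95.7, 120 and 112 CPM in those of MA9+SETDB1. Without Tfec the order of the arms was the opposite, at 41.1, 59.7 and 52.4 CPM in the MA9+EV libraries and 95.5, 120 and 112 CPM in the MA9+SETDB1 ones. Tfec held 88.5% ± 1.70 (SD, n = 3) of the family's reads in MA9+EV and 0.270% ± 0.0473 in MA9+SETDB1. Tfe3 went from 7.19% ± 0.738 to 70.3% ± 2.17 of the reads, Mitf from 2.23% ± 0.626 to 18.1% ± 2.28 and Tfeb from 2.06% ± 0.503 to 11.3% ± 0.266. These are shares of reads rather than of transcripts, because longer transcripts give more reads. A share also moves when another member does: Tfeb's share was larger in MA9+SETDB1 although its own levels overlapped.

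**Figure D2:**
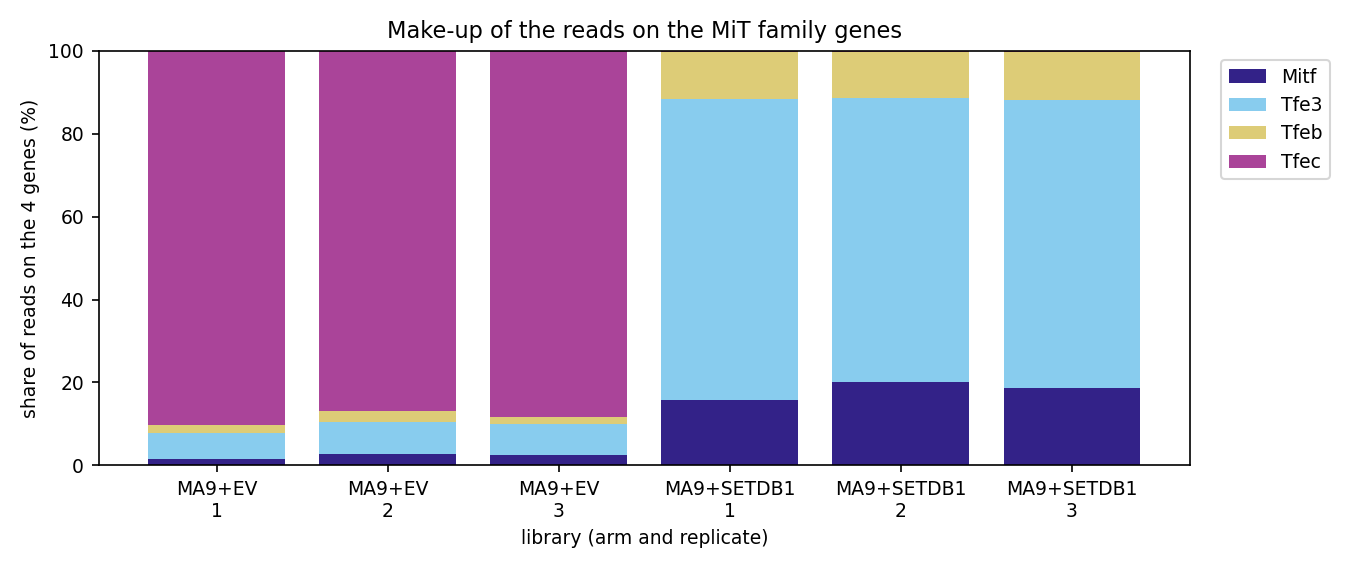
Share of the reads on the 4 MiT genes taken by each gene (vertical axis, percent) in each of the 6 libraries (horizontal axis). Tfec fills 87.0% to 90.3% of the bar in the MA9+EV libraries and Tfe3 68.6% to 72.7% in the MA9+SETDB1 libraries.

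Mitf and Tfeb are transcribed from several starts, whose use the gene counts do not separate. RefSeq windows were found for all 4 genes, 3 each for Mitf and Tfeb, 2 for Tfe3 and 1 for Tfec. None of the 9 held CACGTG, which 7.15% of all windows held, or CATGTG, which 14.2% held. The first Tfe3 window (chrX:7762411-7762710, plus strand) is shown beside that of Tfec because both hold the ETS core AGGAAG while their levels moved in opposite directions, and the third Mitf window (chr6:97991533-97991832, plus strand) because it alone held TGACGTCA, a cAMP response element, in capitals here and present in 1.79% of all windows.

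Tfe3: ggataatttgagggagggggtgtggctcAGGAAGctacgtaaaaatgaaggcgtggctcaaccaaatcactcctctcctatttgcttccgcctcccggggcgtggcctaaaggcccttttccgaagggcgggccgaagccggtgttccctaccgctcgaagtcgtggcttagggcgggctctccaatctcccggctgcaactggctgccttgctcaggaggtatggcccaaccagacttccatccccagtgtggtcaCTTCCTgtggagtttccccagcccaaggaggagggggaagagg

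Mitf: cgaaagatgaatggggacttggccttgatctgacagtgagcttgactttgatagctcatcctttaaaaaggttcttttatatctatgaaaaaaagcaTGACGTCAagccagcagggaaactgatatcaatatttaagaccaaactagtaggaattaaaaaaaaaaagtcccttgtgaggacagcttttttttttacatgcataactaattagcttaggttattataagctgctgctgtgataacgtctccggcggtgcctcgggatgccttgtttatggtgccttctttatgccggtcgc

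The first Tfe3 window held 2 matches to the ETS core, at positions -222 and 8. It was richer in G and C than that of Tfec, at 60.0% with 14 CpG. The second Tfe3 window, not printed here, also held the ETS core, at -18. The third Mitf window had 40.0% and 8 CpG, and the first had 62.7% and 22 CpG.

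Genes with the profile most like each member were found by the distance between log2(CPM + 1) values over the 6 libraries, each centred on its own mean, among 8841 genes at 10 CPM or more. For Tfec the nearest was Myl10, a myosin light chain gene, at 344.5 ± 37.4 and 0.227 ± 0.157 CPM in MA9+EV and MA9+SETDB1, with a distance of 0.303. Prtn3, which encodes proteinase 3, Csn2 and Tifab were also among the nearest, at distances of 0.657 to 0.826. For Mitf they were Ptafr, the receptor gene of platelet-activating factor, at a distance of 0.168, and then Sos2, Mst1, Carhsp1 and Ralgapa2. For Tfe3 they were Cmas, Psme1, Fbxw7, Nsd3 and Ormdl3, at distances of 0.117 to 0.157, and for Tfeb Endov, Erich1, Hyal2, Polr2c and Fars2, at 0.202 to 0.308. The distances over 6 libraries mostly reflect the contrast of the arms, and many genes share each pattern.

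The libraries as a whole were deep and the arms far apart. Total gene counts were between 18070482 and 22561757. Setdb1 ranged from 105 to 109 CPM across MA9+EV and from 475 to 607 CPM across MA9+SETDB1. Without replicate 1 of both arms the log2 fold changes of Mitf, Tfe3, Tfeb and Tfec were 0.96, 1.23, 0.40 and -10.16. Of 7 markers of blood cells and MLL-AF9 leukemia all were tested, 2 were higher and 4 lower, with summed levels of 1597 to 1679 CPM across MA9+EV and 1528 to 1613 CPM across MA9+SETDB1. Of 7 mast cell markers, 5 were higher and Kit was lower, with sums of 117 to 128 and 3808 to 4975 CPM and Mcpt4 at 0 in all libraries. Of 7 macrophage markers, 3 were higher and 2 lower (246 to 276 and 445 to 1397 CPM), with Marco at 0. Of 6 osteoclast markers only Acp5 was tested and it was higher (sums of 11.1 to 12.6 and 155 to 170 CPM), and Dcstamp, Calcr and Ocstamp were at 0. Of 6 melanocyte markers Tyr, Tyrp1 and Mlana were at 0, and 6 stromal markers summed to under 1 CPM in every library. Over all tested genes 27.4% were higher and 26.2% lower. The part of these marker shifts in the levels of the MiT genes was not tested.

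Genes that control MiT proteins at the lysosome divided between higher and lower. Of 32 tested genes of mTORC1, the Rag GTPases, folliculin, calcineurin and 14-3-3 proteins, 5 rose and 7 fell at an edgeR adjusted p under 0.05, 15.6% and 21.9% of the list. Over all tested genes 27.4% rose and 26.2% fell. The list's median log2 fold change was -0.07, against -0.01 for all tested genes. The count of higher genes was 2 without MA9+EV replicate 2 or without MA9+SETDB1 replicate 3 and 3 without MA9+EV replicate 3, and the count of lower genes was 4 without MA9+EV replicate 2 but 11 when MA9+SETDB1 replicate 1 was left out. Mtor itself stood at 65.5 ± 5.09 and 67.2 ± 1.82 CPM (edgeR log2 fold change 0.04 ± 0.10 SE, adjusted p = 0.779).

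In the mTORC1 list the smallest p was that of Nprl3, which encodes a subunit of GATOR1, an inhibitor of mTORC1. It stood at 16.7, 18.5 and 20.1 CPM in the MA9+EV libraries and at 78.3, 154 and 146 CPM in the MA9+SETDB1 ones (edgeR log2 fold change 2.77 ± 0.27 SE, adjusted p = 0.000239). Ywhah, a 14-3-3 gene, rose from 66.7 ± 5.98 to 117 ± 5.85 CPM. Rragb, a Rag GTPase gene, rose from 0.124 ± 0.180 to 1.44 ± 0.679 CPM, a call lost without MA9+EV replicate 2 (edgeR adjusted p = 0.0688) or MA9+SETDB1 replicate 3 (0.0573). Rptor, which encodes the mTORC1 subunit raptor, was 69.7, 69.9 and 66.2 CPM in the MA9+EV libraries and 39.2, 39.4 and 38.7 CPM in the MA9+SETDB1 ones, and was lower in every library of that arm (edgeR log2 fold change -0.81 ± 0.09 SE, adjusted p = 0.000410). Lamtor2, part of the scaffold of the Rag GTPases, fell from 99.2 ± 6.96 to 68.2 ± 1.96 CPM, and Ppp3ca, a catalytic chain of calcineurin, which removes the phosphates that hold TFEB back, from 218 ± 1.205 to 132 ± 22.1 CPM. With replicates 2 and 3 of each arm summed into 1 library, which leaves 2 libraries per arm, Rragb (edgeR adjusted p = 0.102), Lamtor2 (0.0880) and Ppp3ca (0.0666) did not pass. The folliculin gene Flcn had arms that did not overlap, at 62.8 ± 8.31 and 33.9 ± 16.8 CPM, but did not pass (edgeR log2 fold change -0.89 ± 0.33 SE, adjusted p = 0.0552). With the replicate number as a block its edgeR adjusted p was 0.0122, and without MA9+SETDB1 replicate 1 it was 0.000526.

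Among 9 genes for proteins that bind or modify MITF, 3 rose and none fell by edgeR, with 0 lower at an unadjusted p under 0.05 and 0 by DESeq2. The share called was 33.3%, and the share higher, also 33.3%, stood beside 27.4% of all tested genes. Pias3, which encodes an inhibitor of MITF in mast cells, stood at 6.94, 7.92 and 7.30 CPM in the MA9+EV libraries and 21.5, 20.2 and 18.4 CPM in the MA9+SETDB1 ones, with no overlap (edgeR log2 fold change 1.44 ± 0.16 SE, adjusted p = 0.000395). Hint1, the gene of another MITF inhibitor, went from 149 ± 26.02 to 220 ± 43.7 CPM. Its call was narrow (edgeR adjusted p = 0.0465) and was lost when any single library other than MA9+SETDB1 replicate 1 was left out (0.0702 to 0.145). Kars, which encodes the lysyl-tRNA synthetase that releases MITF from HINT1, did not pass, at 264 ± 14.02 and 265 ± 31.3 CPM. The acetyltransferase gene Ep300, a coactivator, rose from 133 ± 24.0 to 240 ± 12.1 CPM. With replicates 2 and 3 summed, Ep300 (edgeR adjusted p = 0.0510) and Hint1 (0.191) did not pass. Without MA9+SETDB1 replicate 1, 5 of these genes passed as higher.

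Genes reported as MITF targets in mast cells rose in 9 of 11 tested cases, and Kit fell. These shares were 81.8% and 9.09%, beside 27.4% and 26.2% of all tested genes. The list is not independent evidence, because a rise of mast cell genes in these libraries was already known when it was written. Gzmb, which encodes a cytotoxic granule protease, rose from 0, 0.0415 and 0.101 CPM in MA9+EV to 128, 402 and 412 CPM in MA9+SETDB1, with a counting interval of 2442 to 34620 for its ratio of 7138. The tryptase gene Tpsb2 had no counts in MA9+EV and reached 38.7, 32.8 and 29.8 CPM in MA9+SETDB1, at least 765-fold higher, taking 3 counts summed over MA9+EV as the floor. The mast cell chymase gene Cma1 reached 130, 126 and 128 CPM from 1 count in MA9+EV. Kit, the receptor for SCF, which was in the medium, and a classic MITF target, stood at 118, 112 and 113 CPM in the MA9+EV libraries and 2.46, 0.183 and 0.571 CPM in the MA9+SETDB1 ones (edgeR log2 fold change -6.72 ± 0.65 SE, adjusted p = 0.000232). The arm with the higher Mitf level had the lower Kit level in every library, and a link between these genes was not tested. The tryptase gene Tpsab1, Mcpt4, Hpgds and Cadm1 had 0 to 3 counts per arm and were not tested. The median log2 fold change of the 11 tested genes was 8.39. Of them, 6 were under 1 CPM in MA9+EV, while Kit, Itga4, Hdc, Ndst2 and Bcl2 stood at 9.385 to 206 CPM there. Those 6 could hardly be called lower, so the count and the median partly follow from the choice of the list and from the low-count filter.

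Genes reported as targets of MITF, TFE3 or TFEC in osteoclasts and macrophages divided, with 4 of 8 tested members higher and 2 lower. Over all tested genes 27.4% were higher and 26.2% lower, so only the higher count stood above this background, and no set test was run. Csf3r, the G-CSF receptor gene and a reported TFEC target in macrophages, was 84.6, 36.6 and 37.9 CPM in the MA9+EV libraries and 0.168, 0.304 and 0.0519 CPM in the MA9+SETDB1 ones (edgeR log2 fold change -8.24 ± 0.61 SE, adjusted p = 7.76e-05). Gpnmb, a glycoprotein gene used as a readout of MITF and TFE3 activity, stood at 10.3, 13.6 and 16.2 CPM in MA9+EV and had 2 counts over the MA9+SETDB1 arm, a ratio of 353 with an exact 95% interval of 97.4 to 2917. Both were lower in MA9+SETDB1, as Tfec was, while Mitf and Tfe3 were higher there, and a link between these genes was not tested. Acp5, the tartrate-resistant acid phosphatase of osteoclasts and macrophages, moved the other way, from 12.4, 11.5 and 10.9 CPM to 155, 163 and 170 CPM (edgeR log2 fold change 3.81 ± 0.11 SE, adjusted p = 1.96e-06). Src rose from 0.177 ± 0.0460 to 1.13 ± 0.215 CPM, and Ostm1, which encodes the partner of the lysosomal chloride transporter, from 64.8 ± 3.66 to 94.0 ± 3.34 CPM, a call lost with replicates 2 and 3 summed (edgeR adjusted p = 0.0825). Ctsk, Oscar and Dcstamp, which define osteoclasts, had 0 to 8 counts per arm. Atp6v0d2, an osteoclast subunit of the proton pump, had 6 and 178 counts and was not tested.

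Of 12 pigment genes, the targets of MITF in melanocytes, 10 were too low to test and 8 had no counts in MA9+EV. Mc1r, which encodes the melanocortin receptor, rose from 0, 0.0415 and 0.151 CPM in MA9+EV to 17.2, 7.85 and 8.78 CPM in MA9+SETDB1 (edgeR log2 fold change 7.42 ± 0.74 SE, adjusted p = 0.000265). Pmel, a melanosome fibril gene, rose from 1.88 ± 0.709 to 5.62 ± 0.999 CPM, a call lost with replicates 2 and 3 summed (edgeR adjusted p = 0.0798). Dct, which encodes a pigment synthesis enzyme, had no counts in MA9+EV or in MA9+SETDB1 replicate 1 and stood at 2.86 and 3.12 CPM in replicates 2 and 3, and was not tested. The other pigment enzyme genes Tyr and Tyrp1 were at 0 in all 6 libraries.

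Lysosome genes of the CLEAR network rose more often than they fell. Of 59 tested genes for the proton pump, for lysosomal enzymes and for lysosomal membrane proteins, 26 rose and 8 fell, 44.1% and 13.6%, against 27.4% and 26.2% of all tested genes. The share called in either direction, 57.6%, was near the 53.5% of all tested genes. The median log2 fold change was 0.37. This count and the background are given as a description, with no set test, and Gm2a, Glb1, Ctsd and Sgsh below were chosen after their values were seen.

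Of 16 genes for subunits of the v-ATPase, the pump that acidifies the lysosome, 8 rose and 1 fell. Atp6v1g1 stood at 12.6, 25.9 and 24.4 CPM in the MA9+EV libraries and 95.2, 154 and 158 CPM in the MA9+SETDB1 ones (edgeR log2 fold change 2.70 ± 0.33 SE, adjusted p = 0.000633). Atp6v0a1, which encodes the membrane subunit that directs the pump to its organelle, rose from 42.0 ± 4.61 to 138 ± 50.5 CPM, and Atp6v1f from 49.3 ± 8.56 to 102 ± 18.2 CPM. Atp6ap2, an accessory subunit gene, fell from 246 ± 33.6 to 186 ± 16.5 CPM, a call lost without MA9+EV replicate 1 (0.0700) or 2 (0.0812), or MA9+SETDB1 replicate 2 (0.140) or 3 (0.124) and with replicates 2 and 3 summed (0.186), all edgeR adjusted p. The count of higher genes was 5 when MA9+EV replicate 3 or either of MA9+SETDB1 replicates 2 and 3 was left out, and 12 without replicate 1 of both arms.

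Of 27 lysosomal enzyme genes, 13 rose and 5 fell, 48.1% and 18.5%, beside 27.4% and 26.2% of all tested genes. Man2b1, the lysosomal alpha-mannosidase gene, rose from 427 ± 35.6 to 1150 ± 233 CPM, Glb1, the beta-galactosidase gene, from 118 ± 44.9 to 523 ± 197 CPM and Ctsd, the cathepsin D gene, from 519 ± 85.5 to 1183 ± 239 CPM. Hexa, which encodes the alpha chain of beta-hexosaminidase, was 464, 530 and 512 CPM in the MA9+EV libraries and 151, 219 and 217 CPM in the MA9+SETDB1 ones and was lower in every library of that arm (edgeR log2 fold change -1.36 ± 0.17 SE, adjusted p = 0.000688). Manba, the beta-mannosidase gene, fell from 135 ± 15.8 to 48.9 ± 10.2 CPM and Gusb, the beta-glucuronidase gene, from 452 ± 57.5 to 248 ± 11.9 CPM. The deepest fall of the list was that of Sgsh, the sulfamidase gene, from 25.2 ± 1.01 to 2.61 ± 2.39 CPM.

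Of 16 lysosomal membrane and cofactor genes, 5 rose and 2 fell. The share higher, 31.2%, was near the 27.4% of all tested genes, and the share lower was 12.5% against 26.2%. The share called, 43.8%, was below the 53.5% of all tested genes. Lamp1, the main membrane glycoprotein of lysosomes, was 709, 712 and 698 CPM in the MA9+EV libraries and 1280, 1600 and 1571 CPM in the MA9+SETDB1 ones (edgeR log2 fold change 1.07 ± 0.14 SE, adjusted p = 0.000757). Cd63, a tetraspanin of lysosomes and granules, rose from 209 ± 18.5 to 456 ± 85.9 CPM and Cln3 from 32.9 ± 6.36 to 66.9 ± 13.7 CPM. Gm2a, which encodes the GM2 activator, rose from 195 ± 121 to 1148 ± 528 CPM. The largest change of the list was a fall: Scarb2, which encodes a lysosomal membrane protein that also sorts an enzyme to the lysosome, stood at 65.7, 50.1 and 51.3 CPM in the MA9+EV libraries and 0.336, 0.183 and 0.416 CPM in the MA9+SETDB1 ones (edgeR log2 fold change -7.43 ± 0.28 SE, adjusted p = 4.73e-06), with arms far apart. Psap, the saposin precursor gene, fell from 450 ± 115 to 208 ± 24.2 CPM. With replicates 2 and 3 summed, Psap (edgeR adjusted p = 0.0505) and Gm2a (0.0708) did not pass. Without replicate 1 of both arms, 8 genes passed as higher and 4 as lower.

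Of 22 autophagy genes, 8 rose and 3 fell, with a median log2 fold change of 0.19. The 11 called of 22 were near the 53.5% of all tested genes, with 36.4% higher and 13.6% lower against 27.4% and 26.2%. The cargo receptor genes Nbr1, from 97.8 ± 2.85 to 165 ± 11.8 CPM, and Optn, from 19.8 ± 1.85 to 50.4 ± 12.4 CPM, were among the higher ones, as was Gabarap, from 208 ± 26.5 to 416 ± 46.4 CPM. Uvrag, a reported TFEB target that acts in autophagosome maturation, was 67.4, 57.4 and 56.3 CPM in the MA9+EV libraries and 32.8, 28.0 and 28.9 CPM in the MA9+SETDB1 ones and was lower in every library of that arm (edgeR log2 fold change -1.01 ± 0.12 SE, adjusted p = 0.000633). Atg9b fell from 30.5 ± 2.75 to 20.6 ± 1.40 CPM. Vps33a fell from 77.4 ± 9.82 to 54.0 ± 6.54 CPM, a call lost without MA9+SETDB1 replicate 2 (edgeR adjusted p = 0.0681) or 3 (0.0685). Atg9b (edgeR adjusted p = 0.145) and Vps33a (0.118) did not pass with replicates 2 and 3 summed. The count of lower genes was 5 without MA9+SETDB1 replicate 1.

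**Figure D3:**
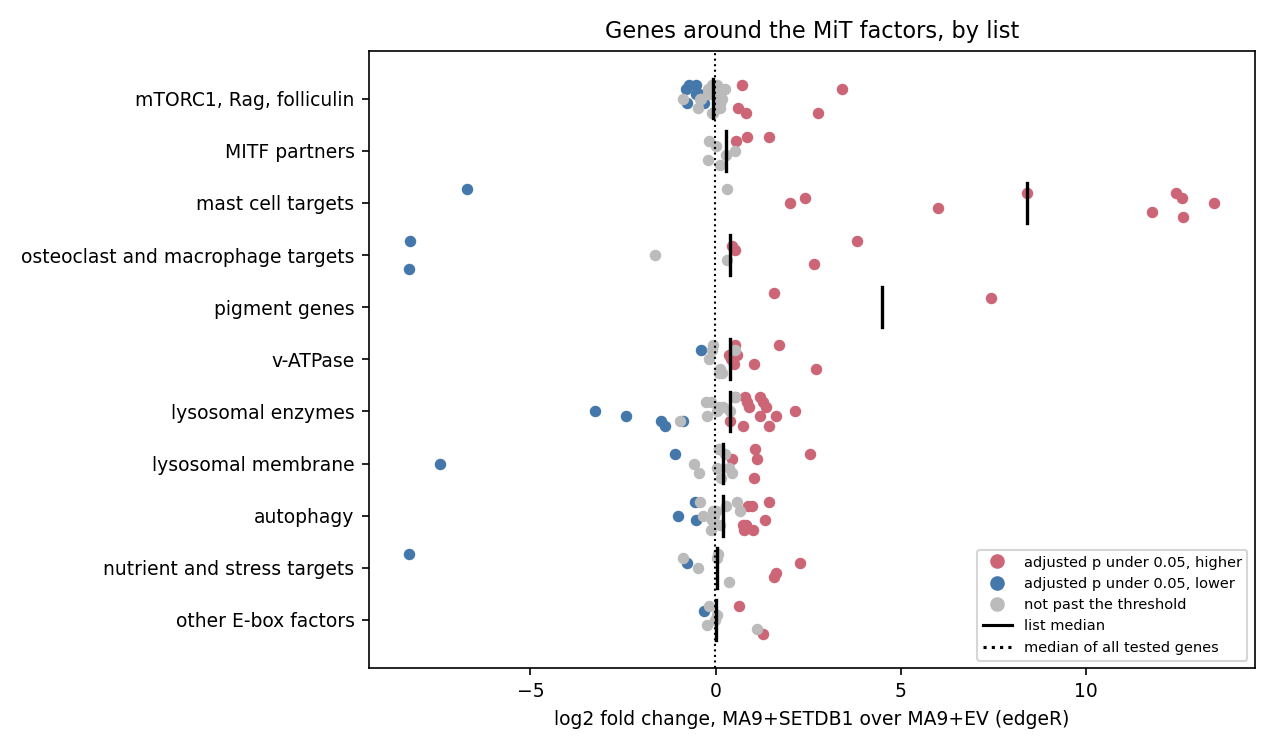
Fitted log2 fold change of MA9+SETDB1 over MA9+EV (horizontal axis) for each tested gene of 11 lists of genes around the MiT factors (vertical axis). Red and blue points passed an edgeR adjusted p under 0.05 as higher or lower, grey points did not, solid lines are list medians and the dotted line is the median of all tested genes. The medians of the lysosome and autophagy lists lie slightly to the right of the dotted line, with Scarb2 far to its left.

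Promoters of these lysosome and autophagy genes were searched for the letters MiT factors read. Of 64 such genes with a RefSeq window, 19 held CACGTG (29.7%), against 12.0% of 9734 tested genes with a window. The genes were listed as CLEAR network genes, which MiT factors raise, so this larger share may follow from the choice of the lists. By list the share was 45.0% for lysosomal enzymes, 36.4% for the v-ATPase, 33.3% for membrane genes and 5.56% for autophagy genes. It was 32.1% of the 28 genes that rose, 18.2% of the 11 that fell and 32.0% of the 25 that did not pass, so genes that rose and genes that did not pass held it at nearly equal shares. The sites of 6 genes that rose are printed on the gene's strand, with 10 bases on each side and the core in capitals, to show the letters beside the core. The start of each site is given from the transcript start: Ctsd chr7:142387910-142387935 (minus strand, core at -98), Glb1 chr9:114401020-114401045 (plus, -48), Gla chrX:134601184-134601209 (minus, -194), Ctsa chr2:164833751-164833776 (plus, -12), Cln3 chr7:126583342-126583367 (minus, -121) and Atp6v0b chr4:117887350-117887375 (minus, -36). The Atp6v0b call (edgeR adjusted p = 0.0339) was lost when any single library other than MA9+SETDB1 replicate 1 was left out (0.0508 to 0.121), and those of Atp6v0b (0.242) and Ctsa (0.0585) were lost with replicates 2 and 3 summed.
Ctsd: gcccgcgtctCACGTGacccgttgag
Glb1: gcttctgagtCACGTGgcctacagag
Gla: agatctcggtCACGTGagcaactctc
Ctsa: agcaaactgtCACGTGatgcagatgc
Cln3: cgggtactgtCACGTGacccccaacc
Atp6v0b: gcgcgggggtCACGTGgggtcggcgc

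The core had a T before or an A after it, giving TCACGTG or CACGTGA, the flanks preferred by MiT factors, at 1 or more sites in 9 of 9 genes that rose and in 9 of 10 that fell or did not pass. Over all tested genes with the core, 688 of 1172 (58.7%) held one of these. The flanks thus did not separate the genes that rose from the others. Of the 17 sites in genes that rose, the printed site of Cln3 alone held the full CLEAR palindrome. Other factors read the same core. Of 8 tested genes for other E-box factors 2 rose and 1 fell, beside 27.4% and 26.2% of all tested genes. Those that rose were the sterol regulators Srebf1, from 169 ± 22.6 to 414 ± 81.6 CPM, and Srebf2, from 310 ± 37.0 to 475 ± 52.45 CPM. Usf2 fell from 43.4 ± 0.190 to 34.6 ± 3.64 CPM. The Usf2 call (edgeR adjusted p = 0.0495) was lost when any single library other than MA9+SETDB1 replicate 1 was left out (0.0714 to 0.177). Srebf2 (edgeR adjusted p = 0.11) and Usf2 (0.329) did not pass with replicates 2 and 3 summed.

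Genes of nutrient and stress control that are reported as TFEB or TFE3 targets divided, with 3 of 10 tested members higher and 2 lower. Over all tested genes 27.4% were higher and 26.2% lower, so the split alone does not set this list apart. Ddit3, the stress factor CHOP, stood at 7.02, 11.6 and 11.5 CPM in the MA9+EV libraries and at 23.2, 62.8 and 59.4 CPM in the MA9+SETDB1 ones (edgeR log2 fold change 2.27 ± 0.41 SE, adjusted p = 0.00347). Sesn2, which encodes a leucine sensor upstream of mTORC1, rose from 56.7 ± 23.3 to 170 ± 50.3 CPM. Ddit4, an mTORC1 inhibitor gene, rose from 40.9 ± 23.4 to 125 ± 13.99 CPM, a call lost without MA9+SETDB1 replicate 2 (edgeR adjusted p = 0.0629) or 3 (0.0638). Besides Gpnmb, Fnip1, a folliculin partner gene, fell from 76.6 ± 6.31 to 45.1 ± 13.9 CPM, and its call was lost when any single library other than MA9+EV replicate 3 and MA9+SETDB1 replicate 1 was left out (0.0540 to 0.0755). With replicates 2 and 3 summed, Sesn2 (edgeR adjusted p = 0.0563), Ddit4 (0.0810) and Fnip1 (0.128) did not pass. Rragd, a Rag GTPase gene that MiT factors raise in other cells, had 18 and 11 counts in the arms and was not tested. The count of lower genes was 1 without MA9+EV replicate 2 but 5 when MA9+SETDB1 replicate 1 was left out.

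The genes around Tfec were examined because the series concerns repression by SETDB1, with a window of 1 Mb chosen after the values were seen. RefSeq lists 6 protein-coding genes within it, all beyond the 5′ end of Tfec, and 5 were tested. Met, the HGF receptor gene at 565 kb, stood at 16.7 ± 2.15 and 0.148 ± 0.0239 CPM (edgeR log2 fold change -6.75 ± 0.28 SE, adjusted p = 7.57e-06). Cav2, the caveolin 2 gene at 383 kb, went from 3.53 ± 1.62 to 0.0765 ± 0.0392 CPM and St7 at 795 kb from 62.8 ± 9.14 to 9.17 ± 2.59 CPM. The nearest, Tes at 167 kb, moved the other way, from 44.7 ± 18.6 to 83.5 ± 12.9 CPM. Capza2, a capping protein gene at 739 kb, changed least, at 341 ± 14.9 and 264 ± 28.4 CPM. The calls of Tes and Capza2 were lost without MA9+EV replicate 2 (edgeR adjusted p = 0.113 and 0.108) or 3 (0.0953 and 0.0784), and also without MA9+SETDB1 replicate 2 (0.0819 and 0.0751) or 3 (0.102 and 0.0654), and with replicates 2 and 3 summed (0.205 and 0.196). Within 1 Mb of Mitf, 2 of 6 tested genes rose and 2 fell, near Tfe3 11 of 30 rose and 5 fell, and near Tfeb 6 of 29 rose and 8 fell, beside 27.4% and 26.2% of all tested genes. The chromatin libraries of the series were not analysed here, so methylation at these genes was not examined.

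**Figure D4:**
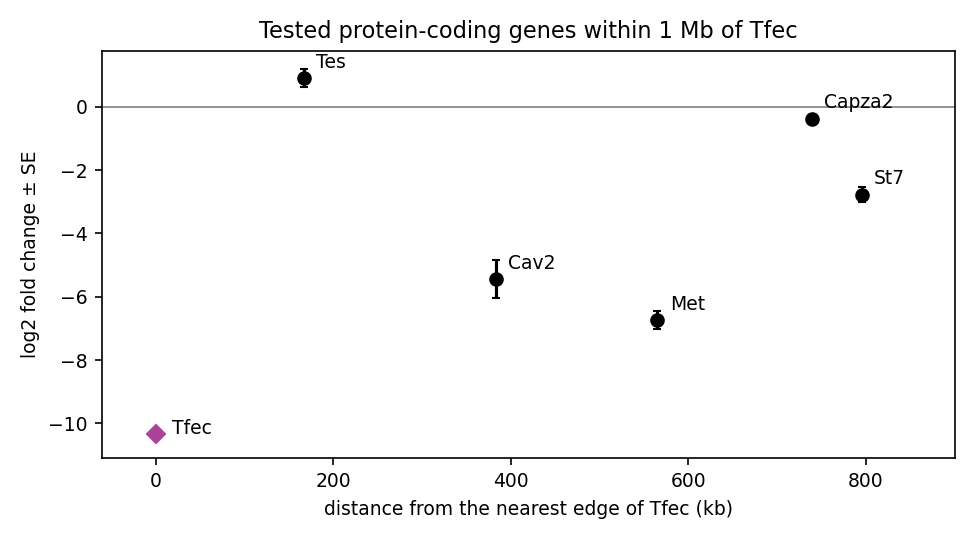
Fitted log2 fold change with its standard error (vertical axis) of the 5 tested protein-coding genes within 1 Mb of Tfec, by distance from its nearest edge in kb (horizontal axis), with Tfec at 0. Tes, the nearest, is above 0, and Cav2, Met and St7 are below -2 on the log2 scale.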

How the data were processed

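Strand-specific poly-A RNA libraries were sequenced from 3 MA9+EV and 3 MA9+SETDB1 cultures. The deposited values were raw read counts per gene, without normalization by the authors, in files that end in HTSeq summary lines. The submitters' processing notes name GRCm38 and, among other tools without role, STAR 2.6.0c and HTSeq 0.11.0. The counting's strand setting was not given in the sources used here. Summary lines (24.6% to 26.3% of entries, largely multiply aligned reads) were left out.

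Of 54146 identifiers, 52480 matched symbols by version, 1599 by stable identifier and 67 did not match. Tests used edgeR 4.0.16 (filterByExpr, TMM, quasi-likelihood F-test, Benjamini-Hochberg over 12986 genes, threshold 0.05; R 4.3.3, limma 3.58.1), after a test on simulated data. The simulation had independent libraries with few changed genes, so it does not cover the replicate structure or the many changed genes here. Alternatives were DESeq2 1.42.0, RLE or upper-quartile factors, no low-count filter, the replicate block, replicates 2 and 3 summed, and leaving out libraries. Depth was 18070482 to 22561757 counts per library, and counting intervals cover counting error only. The other 20 of 26 samples were not analysed here. The 4 members and the 11 pathway lists (175 genes, 8 of them in 2 lists) were chosen with earlier results of these data known. Named list genes are, per list, up to 3 with the smallest p in each direction among those called, unless said otherwise, and the nearest profiles are among the 5 genes of smallest distance. Some genes that these rules select are not reported here. Shares of the family had been planned per exon length, which was not used here, so they are shares of reads. One of the 2 identifiers for Ddit3 had no counts and was left out, and Tmem55b was matched as Pip4p1.

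Replicate numbers are shared by the arms. After the arm means were taken out, libraries with the same number correlated at 0.334, 0.298 and 0.284 over 9041 genes, so the replicate block was fitted as the paired alternative, but MA9+EV replicate 2 also correlated at 0.336 with MA9+SETDB1 replicate 3. Replicates 2 and 3 differed by more than sampling noise (chi-square per degree of freedom 4.29 and 3.14), against 78.3 to 102 for pairs with replicate 1. Promoter windows came from RefSeq on GRCm38.p6.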

Additional observations from a re-analysis of the deposited data

How the results depend on the processing

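The direction of all 4 members held under every alternative run, with log2 fold changes of 0.77 to 1.198 for Mitf, 1.15 to 1.34 for Tfe3, 0.31 to 0.67 for Tfeb and -10.51 to -10.15 for Tfec. Of 388 values recomputed besides the neighbours of Tfec, 333 stayed within their limits (counts within 1.5 times, log2 fold changes and shares within 1 SD between replicates) and 55 moved, all of them counts of genes. Of 26 counts of Tfec neighbours 5 moved, each with 0 higher genes. With replicates 2 and 3 of each arm summed, 2292 genes were higher and 1928 lower. The counts then were 2 higher and 1 lower for the mTORC1 list, 1 higher for MITF partners, 2 higher for osteoclast and macrophage targets, 1 higher for pigment genes, 3 higher and 0 lower for the v-ATPase, 8 higher for lysosomal enzymes, 3 higher and 1 lower for lysosomal membrane genes, 4 higher and 1 lower for autophagy, 1 higher for nutrient and stress targets and 1 higher and 0 lower for other E-box factors. Without replicate 1 of both arms, an alternative chosen after seeing the data, 5314 genes were higher and 5285 lower, with 10 and 13 for the mTORC1 list, 7 and 1 for MITF partners, 4 lower for osteoclast and macrophage targets, 8 and 4 for lysosomal membrane genes, 6 lower for autophagy, 5 and 5 for nutrient and stress targets and 4 higher for other E-box factors. With no low-count filter the lower counts were 1 for pigment genes, 0 for the v-ATPase, 4 for nutrient and stress targets and 0 for other E-box factors, and with RLE factors the last was also 0. Leaving out each library in turn gave ranges of 2 to 7 higher and 4 to 11 lower for the mTORC1 list, 2 to 5 higher for MITF partners, 5 to 9 higher and 0 to 1 lower for the v-ATPase, 2 to 5 lower for autophagy, 1 to 5 lower for nutrient and stress targets and 0 to 1 lower for other E-box factors. The cause of these shifts was not tested. Mast cell targets gave 9 higher and 1 lower under every alternative. Of the 11 tested, 6 were under 1 CPM in MA9+EV and could hardly be called lower, so this stability adds no support. With the replicate number as a block, 3791 genes were higher and 3761 lower, and the log2 fold changes of Mitf, Tfe3, Tfeb and Tfec were 1.04, 1.27, 0.46 and -10.33. The block added 11 calls among the genes of the lists, Flcn among them, and removed none. Depth limits Tfec in MA9+SETDB1, at 4 to 7 counts per library.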
